A study of Homo sapiens with 6 samples.

Results

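The genes described here are 33 genes of cholesterol and fatty acid synthesis, chosen by name and read from a table of RNA-seq counts with 23384 gene identifiers. All 33 were in the table, and 29 held enough counts to be tested. They were measured in CAL27, an established line of oral squamous carcinoma cells grown in DMEM with fetal bovine serum. The 3 control libraries came from cells given a vector, with genotype WT in the labels. The 3 compared libraries came from cells of the same line given a plasmid meant to overexpress TNFAIP2, and they are called TNFAIP2-labelled here. The labels do not say whether the plasmid was kept stably or in a clone, nor whether separate cultures were used for each library, so the tests measure only how these libraries vary, which may be technical. The question posed by the design was what TNFAIP2 changes in the transcriptome.

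Cholesterol is built from acetyl-CoA through mevalonate and farnesyl diphosphate to squalene, which is closed into lanosterol and trimmed to cholesterol. Fatty acids are built from cytosolic acetyl-CoA, then elongated and desaturated. Both routes are driven by the transcription factors SREBP-1 and SREBP-2, products of SREBF1 and SREBF2, which SCAP escorts from the endoplasmic reticulum to be cleaved and which INSIG proteins hold back when sterols are plentiful.

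Each library held between 3092261 and 3527161 counts. TNFAIP2 itself had 194, 112 and 162 counts in controls 1 to 3 and 194, 152 and 142 counts in TNFAIP2-labelled libraries 1 to 3, with overlapping groups, a log2 fold change (log2FC, TNFAIP2-labelled minus control) of -0.21 (SE 0.28) and an edgeR adjusted p of 0.881. This count therefore gives no check of the labels, and all directions below are between libraries as labelled. The kit keeps the strand of each transcript, but which strand was counted is not given in the sources used here. Had it been the other one, a count under a gene's name, TNFAIP2 included, would be of reads from the strand opposite that gene, and this could not be settled here. Of 12 markers of the oral squamous line, all 12 were in the table, and their summed level was 1052 to 1404 CPM (counts scaled to library size, the usual unit) in controls and 1165 to 1426 CPM in TNFAIP2-labelled libraries. Among the 12, KRT5 and SFN had the highest means, 597 and 219 CPM, and DSG3 the lowest, 3.12 CPM. Of 18 markers of other cell types, 9 had a row. Those summed to 170 to 220 CPM in controls and 146 to 188 CPM in TNFAIP2-labelled libraries, mostly from PMEL, which overlaps 89 exonic bases of CDK2 on the other strand. The mean of PMEL was 168 CPM and that of the endothelial gene CDH5 was 8.10 CPM. At most of the loci compared next, the gene had fewer counts than a feature annotated on the other strand. Features entered this comparison only with at least 60 counts in total, with no such limit on the gene, which favours low ratios. Over 365 features contained in the exons of a gene on the other strand, loci of the synthesis genes left out, the median ratio of the gene's own count to the feature's count (the own-strand ratio) was 0.104, 0.0994 and 0.180 in controls 1 to 3. It was 0.198, 0.135 and 0.193 in TNFAIP2-labelled libraries 1 to 3. The means were 0.128 ± 0.0454 and 0.175 ± 0.0350 (SD, n = 3), and the 2-sided exact permutation p was 0.2, where 0.1 is the smallest this design allows. A count under a gene's own name is therefore called its own-name count below.

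The clearest example among the synthesis genes was FDPS, the farnesyl diphosphate synthase gene on chromosome 1 (GRCh38, 155308748 to 155320666, plus strand). The lncRNA RUSC1-AS1 (155316863 to 155324176, minus strand) overlaps 693 of its exonic bases, of which 528 are coding. RUSC1-AS1 also overlaps 398 exonic bases of RUSC1. At the lanosterol synthase gene LSS (chromosome 21, 46188141 to 46228824, minus strand), the lncRNA AP001469.1 overlaps 122 exonic bases, all coding. Exons 5 and 10 of transcript FDPS-201 and exon 5 of LSS-201 are shown on the coding strand, 5′ to 3′, as stretches that GENCODE 29 gives in exact complement to the lncRNA, since a read from either transcript there can be assigned only by its strand.
FDPS exon 5, chr1:155317941-155318021, plus strand: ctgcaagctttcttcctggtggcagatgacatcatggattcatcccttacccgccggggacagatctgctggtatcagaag
FDPS exon 10, chr1:155319803-155319928, plus strand: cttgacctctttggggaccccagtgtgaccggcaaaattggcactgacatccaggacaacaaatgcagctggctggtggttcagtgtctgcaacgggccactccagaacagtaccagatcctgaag
LSS exon 5, chr21:46221854-46221975, minus strand: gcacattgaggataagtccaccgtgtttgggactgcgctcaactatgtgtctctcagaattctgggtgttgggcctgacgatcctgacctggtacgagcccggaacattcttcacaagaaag

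No synthesis gene passed the test between the groups. Under their own names, 0 of 29 tested members had an edgeR adjusted p under 0.05, beside 0 of 11851 genes tested, which is 0%. The members' adjusted p-values ran from 0.830 for FDPS to 0.989 for NSDHL. DESeq2 and limma-voom also called 0 of the members. At an unadjusted p under 0.05 in edgeR there was 1 member, FDPS, beside 580 of 11851 genes (4.89%). Log2FC values, TNFAIP2-labelled minus control, were above 0 for 22 and below 0 for 7 of the 29, with a median of 0.18. Over all 11851 genes 51.9% were above 0 with a median of 0.02, and over 9057 protein-coding genes 62.0% were above 0 with a median of 0.13. The 3 TNFAIP2-labelled libraries lay above all 3 controls for 2 tested members, FDPS and SCAP, beside 657 of 11851 genes (5.54%), and below them for 0 members, beside 583 genes (4.92%). In bulk RNA, fewer cells that express a gene and less RNA per cell cannot be told apart.

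**Figure D1:**
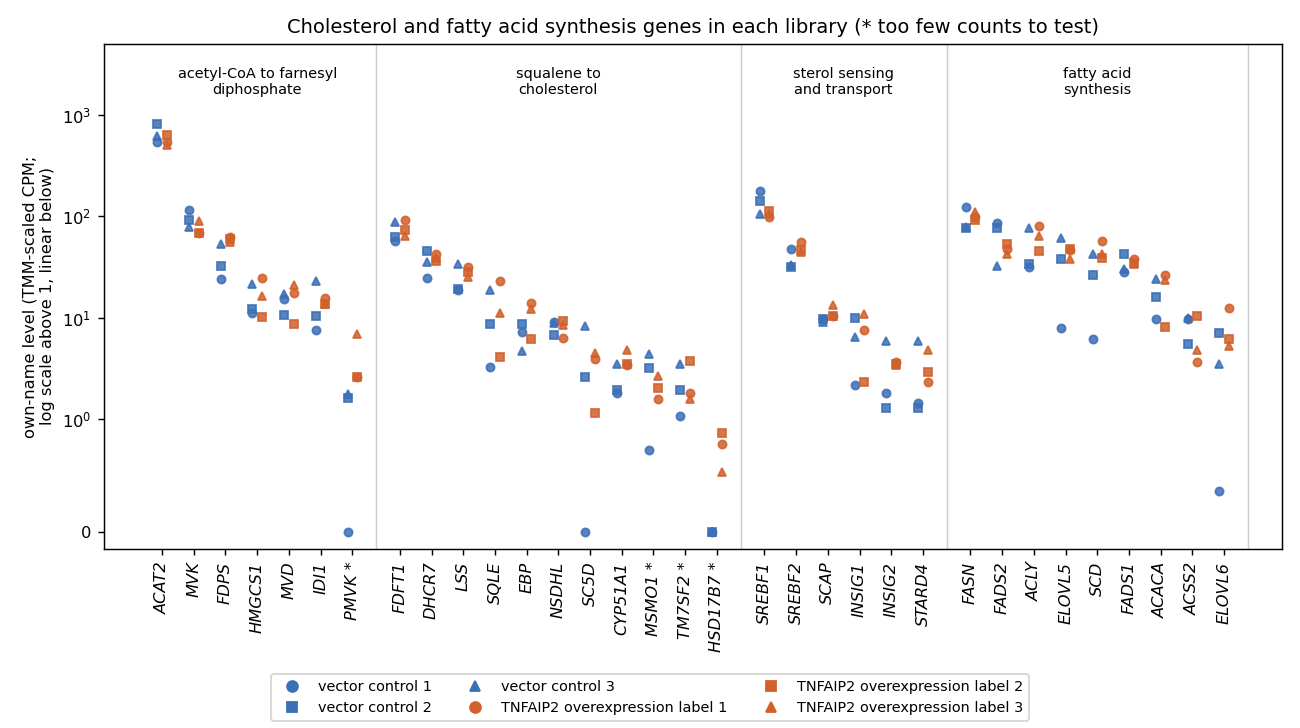
Own-name level of the 33 synthesis genes in each library, in CPM with TMM-scaled library sizes, on an axis that is logarithmic above 1 and linear below, where each point is 1 library. FDPS and SCAP are the tested genes whose groups do not overlap, and control 1 is the lowest library for many genes, among them SCD at 6.15 CPM and ELOVL5 at 7.95 CPM.

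Of the 7 genes from acetyl-CoA to farnesyl diphosphate, 6 were tested, with 4 log2FC values above 0 and a median of 0.10. ACAT2, which joins acetyl-CoA units in the cytosol, had 547, 816 and 621 CPM in controls 1 to 3 and 541, 630 and 510 CPM in TNFAIP2-labelled libraries 1 to 3. Control 2 was the highest, and the groups (661 ± 139 and 560 ± 62.3 CPM, SD, n = 3) overlapped, with a log2FC of -0.24 (SE 0.20, edgeR adjusted p = 0.838). Divided by exon length, ACAT2 had the highest own-name level of the members at 142 CPM per kilobase, above SREBF1 at 15.4, FDFT1 at 14.0, MVK at 13.2 and FDPS at 12.9. Its exons lie opposite 397 exonic bases of TCP1, a chaperonin subunit gene, and 1141 of a SOD2 gene model with a mean of 0 counts, so its own-name count may hold reads of those transcripts. HSD17B7, of the later sterol steps, had the lowest level per kilobase, 0.0764 CPM. This order holds for own-name counts only. The features on the other strand, described below, had means of 2313 CPM at FDPS, 689 at ACAT2 and 69.7 at SREBF1. Those are levels of whole features, scaled among themselves and not divided by length, so they do not rank the members. At ACAT2 and SREBF1 they are counts of the protein-coding genes TCP1 and RAI1, which share 8.05% and 5.74% of their exonic bases with the member.

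FDPS, which makes the farnesyl diphosphate that feeds both sterols and protein prenylation, had 24.2, 32.6 and 54.0 CPM in controls and 63.0, 59.4 and 55.4 CPM in TNFAIP2-labelled libraries. All 3 TNFAIP2-labelled libraries lay above the controls, but control 3 came close to the nearest of them. The means were 36.9 ± 15.3 and 59.3 ± 3.82 CPM (SD, n = 3), and the log2FC of 0.68 (SE 0.29) had an edgeR p of 0.0268 and an adjusted p of 0.830. HMGCS1, which makes HMG-CoA, had 11.2, 12.3 and 21.5 CPM in controls and 24.6, 10.2 and 16.2 CPM in TNFAIP2-labelled libraries. Its highest and lowest libraries were both TNFAIP2-labelled, with a log2FC of 0.18 (SE 0.40, edgeR adjusted p = 0.925).

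MVK, the mevalonate kinase gene, had 115, 91.3 and 79.3 CPM in controls and 68.0, 67.9 and 90.2 CPM in TNFAIP2-labelled libraries. The groups overlapped through TNFAIP2-labelled library 3, and the log2FC was -0.33 (SE 0.23, edgeR adjusted p = 0.830). IDI1, which isomerises isopentenyl diphosphate, had 7.59, 10.3 and 23.0 CPM in controls and 15.7, 13.7 and 13.6 CPM in TNFAIP2-labelled libraries. The controls spanned the whole range, and the log2FC was 0.06 (SE 0.42, edgeR adjusted p = 0.979). MVD, the last step to isopentenyl diphosphate, had a log2FC of 0.14 (SE 0.40). PMVK, the kinase between MVK and MVD, was too low to test, with 0, 5 and 6 counts in controls and 10, 9 and 26 counts in TNFAIP2-labelled libraries. Its groups did not overlap in CPM, but the share of 5.54% above covers tested genes only, so none is given beside it.

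From squalene to cholesterol, 8 of 11 genes were tested, 6 with a log2FC above 0, and the median was 0.19. FDFT1, the squalene synthase gene, had 57.1, 62.6 and 88.5 CPM in controls and 91.5, 73.1 and 63.3 CPM in TNFAIP2-labelled libraries. SQLE, the squalene epoxidase gene, had 3.25, 8.71 and 18.9 CPM in controls and 23.3, 4.08 and 11.2 CPM in TNFAIP2-labelled libraries. Both groups thus spread widely in either gene and overlapped, with log2FC values of 0.13 (SE 0.25) for FDFT1 and 0.31 (SE 0.66) for SQLE and edgeR adjusted p-values of 0.910 and 0.921. LSS had 18.8, 19.0 and 33.6 CPM in controls and 31.9, 28.3 and 25.3 CPM in TNFAIP2-labelled libraries. Control 3 was its highest library and the other controls its lowest, with a log2FC of 0.25 (SE 0.32, edgeR adjusted p = 0.874). DHCR7, which reduces 7-dehydrocholesterol, had 24.9, 45.8 and 35.7 CPM in controls and 42.1, 36.1 and 38.6 CPM in TNFAIP2-labelled libraries. Its controls spanned the other group, and the log2FC was 0.13 (SE 0.28, edgeR adjusted p = 0.921).

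The other squalene-to-cholesterol genes were low, with means from 0.365 CPM for HSD17B7 to 8.81 CPM for the sterol isomerase gene EBP. Log2FC values were 0.66 (SE 0.73) for the lanosterol demethylase gene CYP51A1, 0.65 (SE 0.48) for EBP, -0.03 (SE 0.47) for NSDHL and -0.19 (SE 0.92) for SC5D. TM7SF2, MSMO1 and HSD17B7 were too low to test. HSD17B7 had 0 counts in each control and 3, 3 and 2 counts in TNFAIP2-labelled libraries 1 to 3. That is at or under the limit of 3 counts that a count of 0 allows in a library, so no fold is given.

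Among the 6 genes of sterol sensing and transport, 5 of 6 log2FC values were above 0, with a median of 0.21. The exception was SREBF1, the second most abundant member per kilobase. It had 178, 141 and 105 CPM in controls and 98.5, 112 and 105 CPM in TNFAIP2-labelled libraries. Controls 1 and 2 were high, and control 3 lay among the TNFAIP2-labelled libraries. The means were 141 ± 36.8 and 105 ± 6.96 CPM (SD, n = 3), a log2FC of -0.42 (SE 0.22, edgeR adjusted p = 0.830).

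SREBF2 went the other way, with 47.4, 31.9 and 33.02 CPM in controls and 56.5, 46.6 and 45.0 CPM in TNFAIP2-labelled libraries. Only control 1 reached the TNFAIP2-labelled range. The means were 37.4 ± 8.61 and 49.4 ± 6.21 CPM (SD, n = 3), with a log2FC of 0.40 (SE 0.27, edgeR adjusted p = 0.830). SCAP had 9.76, 9.68 and 9.14 CPM in controls and 10.5, 10.5 and 13.3 CPM in TNFAIP2-labelled libraries. The groups did not overlap, but the log2FC of 0.26 (SE 0.41) had an edgeR adjusted p of 0.895. INSIG1, which retains SCAP, had 2.17, 10.0 and 6.49 CPM in controls and 7.58, 2.33 and 10.9 CPM in TNFAIP2-labelled libraries. Each group held a library near 2 CPM and one near 10, and the log2FC was 0.15 (SE 0.62, edgeR adjusted p = 0.959). INSIG2 and the sterol carrier gene STARD4 had means of 3.27 and 3.12 CPM and log2FC values of 0.22 (SE 0.75) and 0.20 (SE 0.78).

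For fatty acid synthesis, all 9 genes were tested, 7 with a log2FC above 0, and the median was 0.22. FASN, the fatty acid synthase gene and by CPM the most abundant of the 9, had 123, 76.8 and 78.1 CPM in controls and 98.8, 91.2 and 109 CPM in TNFAIP2-labelled libraries. Control 1 was its highest library and the other controls its lowest, with a log2FC of 0.11 (SE 0.23, edgeR adjusted p = 0.919). ACLY, which makes cytosolic acetyl-CoA from citrate, had 31.5, 34.2 and 76.1 CPM in controls and 80.8, 45.7 and 64.7 CPM in TNFAIP2-labelled libraries. Control 3 lay within the TNFAIP2-labelled range, with a log2FC of 0.43 (SE 0.33, edgeR adjusted p = 0.831). ELOVL5, an elongase of polyunsaturated fatty acids, had 7.95, 38.4 and 60.7 CPM in controls and 47.0, 48.1 and 38.1 CPM in TNFAIP2-labelled libraries. Its controls spanned the other group, and the log2FC was 0.31 (SE 0.58, edgeR adjusted p = 0.912).

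SCD, the stearoyl-CoA desaturase gene, had 6.15, 26.1 and 42.2 CPM in controls and 57.2, 38.8 and 42.6 CPM in TNFAIP2-labelled libraries. Control 1 was far below the rest, and control 3 lay above TNFAIP2-labelled library 2. The means were 24.8 ± 18.0 and 46.2 ± 9.76 CPM (SD, n = 3), with a log2FC of 0.89 (SE 0.53, edgeR adjusted p = 0.830). ELOVL6, which elongates palmitate, had the highest log2FC of the tested members, 1.10 (SE 0.69), at a mean of 5.83 CPM. FADS2 and FADS1 encode the delta-6 and delta-5 desaturases and overlap each other by 490 exonic bases on opposite strands. FADS2 had 86.0, 76.1 and 32.1 CPM in controls and 47.3, 53.3 and 42.6 CPM in TNFAIP2-labelled libraries. Its controls spanned the other group, and the log2FC was -0.44 (SE 0.30, edgeR adjusted p = 0.830). FADS1 had 28.2, 42.9 and 30.4 CPM in controls and 38.2, 35.0 and 34.1 CPM in TNFAIP2-labelled libraries, again within the control range, with a log2FC of 0.08 (SE 0.28, edgeR adjusted p = 0.955). ACACA, the acetyl-CoA carboxylase gene, and ACSS2, which activates acetate, had log2FC values of 0.22 (SE 0.43) and -0.42 (SE 0.53).

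**Figure D2:**
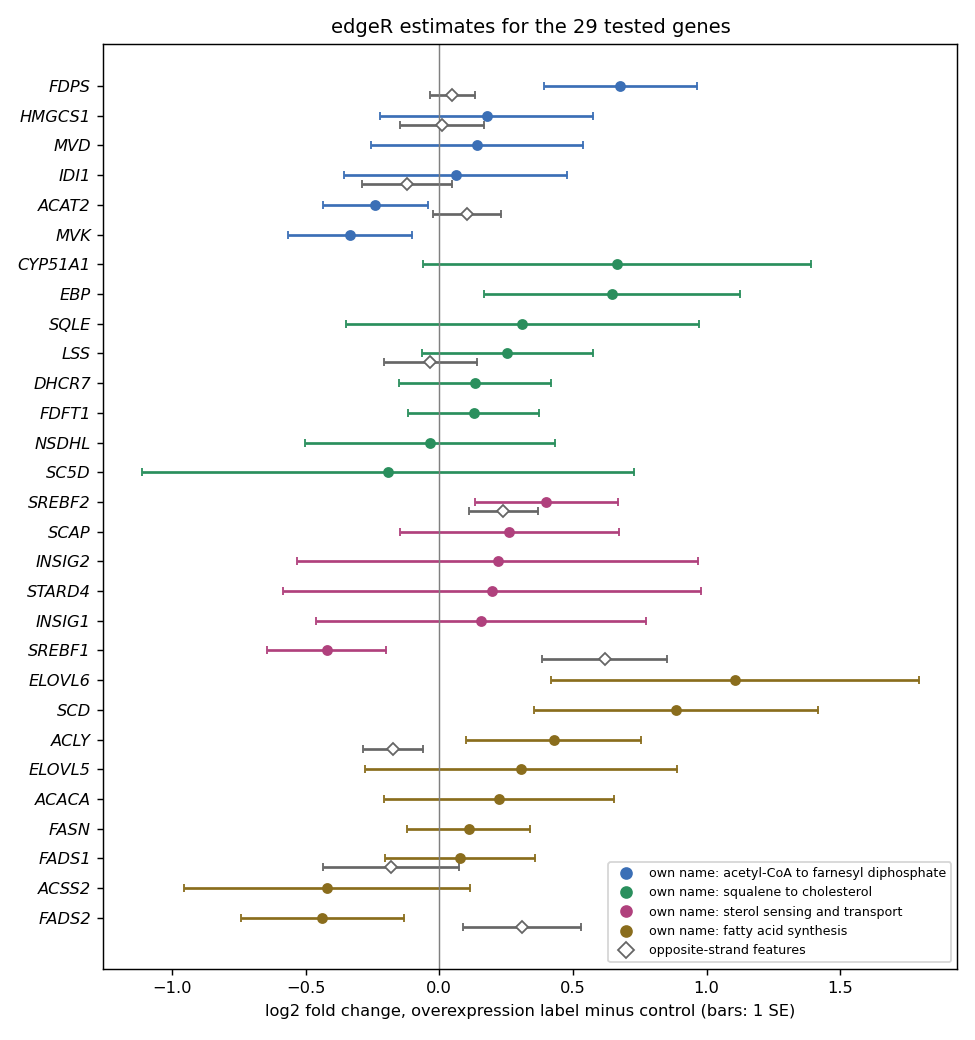
Log2FC (TNFAIP2-labelled minus control) with its standard error for the tested synthesis genes under their own names and for the features on the other strand, from the 2 edgeR fits. Most own-name values lie above 0, among them FDPS at 0.68 and SCD at 0.89. The features on the other strand run from -0.18 at FADS1 to 0.62 at SREBF1, with those opposite FDPS, HMGCS1 and LSS near 0. The 2 fits were scaled separately, so their values are not on a common scale.

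At 8 member loci a lncRNA opposite the exons had more counts than the synthesis gene, except in 1 library of CYP51A1, where they were equal. CYP51A1-AS1 and STARD4-AS1 share only 4.67% and 2.196% of their exonic bases with the member. The order was the other way at SOD2-OT1 opposite ACAT2 (means of 0.333 and 2049.5 counts) and AC069185.1 opposite FDFT1 (means of 0.333 and 248.5 counts), and a second lncRNA at LSS, AP001468.1, had 7 to 30 counts. RUSC1-AS1, opposite FDPS, had 4343, 5953 and 4574 counts in controls and 5034, 5473 and 5146 counts in TNFAIP2-labelled libraries, against 67, 101 and 183 and then 241, 204 and 208 counts under the name FDPS. The ratio of FDPS to RUSC1-AS1 counts was 0.0155, 0.0170 and 0.0401 in controls and 0.0480, 0.0374 and 0.0405 in TNFAIP2-labelled libraries. Control 3 thus lay with the TNFAIP2-labelled libraries in this ratio, as it did in the own-strand ratio of other loci. The overlap is 19.7% of the 3516 exonic bases of RUSC1-AS1, and how many of its reads lay there was not measured.

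AC114947.2, opposite 703 non-coding exonic bases of HMGCS1, had 860, 1477 and 1334 counts in controls and 1276, 1404 and 1076 counts in TNFAIP2-labelled libraries, where HMGCS1 had 31, 38 and 73 and then 94, 35 and 61 counts. AC125257.2, whose 156 bases lie entirely within a non-coding stretch of the ACLY exons, had 858, 1045 and 847 counts in controls and 734, 942 and 818 counts in TNFAIP2-labelled libraries. The ratio of ACLY to AC125257.2 counts was 0.102, 0.102 and 0.305 in controls and 0.421, 0.167 and 0.298 in TNFAIP2-labelled libraries. In CPM the lncRNA had 310, 337 and 250 in controls and 192, 274 and 218 in TNFAIP2-labelled libraries, so both sides of the ratio varied. At LSS the same ratio, to AP001469.1, was 0.170, 0.206 and 0.508 in controls and 0.529, 0.348 and 0.306 in TNFAIP2-labelled libraries, and at IDI1, to IDI2-AS1, it was 0.0772, 0.0966 and 0.290 in controls and 0.270, 0.135 and 0.199 in TNFAIP2-labelled libraries. At ACLY, LSS and IDI1 controls 1 and 2 had the lowest ratios. SREBF2-AS1, which shares 280 of its 2989 exonic bases with SREBF2, had 506, 684 and 468 counts in controls and 640, 729 and 622 counts in TNFAIP2-labelled libraries. Other loci did not share that order. The ratio at SREBF2 was 0.260, 0.145 and 0.240 in controls and 0.338, 0.220 and 0.272 in TNFAIP2-labelled libraries, and at HMGCS1 it was 0.0366, 0.0261 and 0.0551 in controls and 0.0740, 0.0253 and 0.0571 in TNFAIP2-labelled libraries. TNFAIP2-labelled library 2 was thus the lowest at HMGCS1, and control 1 was among the higher libraries at SREBF2.

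**Figure D3:**
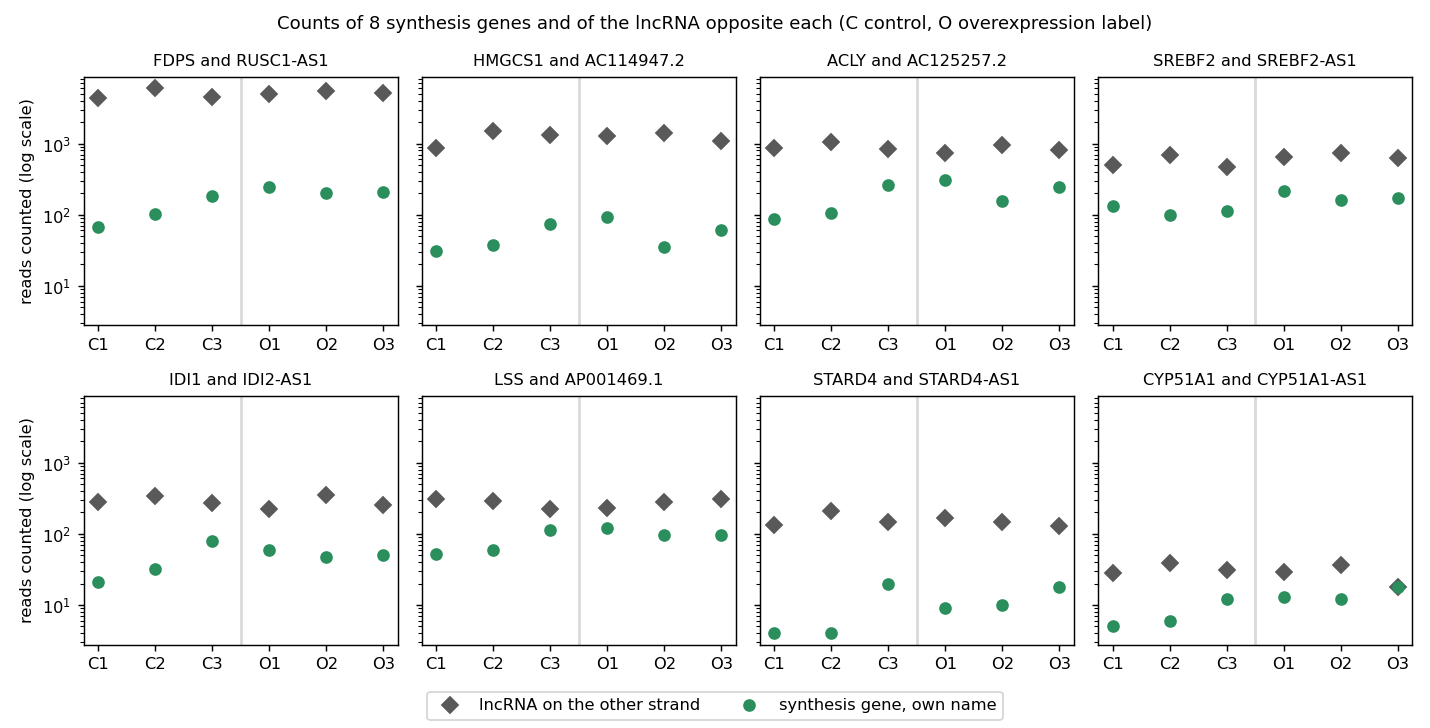
Reads counted per library for 8 synthesis genes (circles) and for the lncRNA on the other strand of each (diamonds), on a log axis, with controls C1 to C3 left of the line and TNFAIP2-labelled libraries O1 to O3 right of it. The lncRNA holds more counts than the gene in every library of the first 7 pairs, as at FDPS with 67 to 241 counts against 4343 to 5953, and in 5 of 6 libraries at CYP51A1.

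When features opposite a gene were summed by that gene, 10 synthesis genes could be tested, and 0 had an edgeR adjusted p under 0.05, beside 3 of 3133 genes (0.0958%), and DESeq2 and limma-voom called 0 of the 10 as well. At an unadjusted p under 0.05 there was 1 of 10, beside 175 of 3133 (5.59%). By these sums 6 of the 10 log2FC values were above 0 with a median of 0.03, where 47.7% of all 3133 were above 0 with a median of -0.01. At FDPS the level opposite was 2273 ± 186 CPM in controls and 2352 ± 41.5 CPM in TNFAIP2-labelled libraries (SD, n = 3), a log2FC of 0.05 (SE 0.08), beside 0.68 under its own name. Likewise HMGCS1 had 561 ± 121 and 564 ± 70.3 CPM opposite, a log2FC of 0.01 (SE 0.16). For ACLY the values opposite were 422 ± 13.5 and 374 ± 35.8 CPM, a log2FC of -0.17 (SE 0.11), where the own-name value was 0.43. LSS and IDI1 had log2FC values of -0.03 (SE 0.17) and -0.12 (SE 0.17) opposite. SREBF2 kept its direction with 253 ± 30.0 and 299 ± 19.8 CPM, a log2FC of 0.24 (SE 0.13, edgeR adjusted p = 0.787). These sums were scaled among themselves. In the fit over all genes the lncRNAs lay lower, at -0.18 (SE 0.19) for RUSC1-AS1, -0.20 (SE 0.21) for AC114947.2, -0.39 (SE 0.20) for AC125257.2, -0.33 (SE 0.24) for IDI2-AS1, -0.26 (SE 0.24) for AP001469.1 and 0.01 (SE 0.21) for SREBF2-AS1, each a log2FC with an edgeR adjusted p of 0.830 or more. The differences between the own-name and opposite values were not tested.

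At SREBF1, ACAT2, FADS1 and FADS2 the feature opposite is a protein-coding gene with transcripts of its own. RAI1, a transcriptional regulator gene, shares 556 exonic bases with SREBF1 on the other strand and had 155, 106 and 93 counts in controls and 174, 178 and 209 counts in TNFAIP2-labelled libraries. Scaled within the opposite-strand sums, its groups did not overlap, the state of 170 of 3133 genes (5.43%) with higher TNFAIP2-labelled libraries. The log2FC was 0.62 (SE 0.23) with an edgeR p of 0.0210 and an adjusted p of 0.787. Scaled over all genes, RAI1 overlapped between the groups, with 56.0, 34.2 and 27.4 CPM in controls and 45.5, 51.9 and 55.6 CPM in TNFAIP2-labelled libraries and a log2FC of 0.38 (SE 0.28). Reads of RAI1 and of SREBF1 in the shared bases can be told apart only by strand. By the sums, TCP1, opposite ACAT2, had a log2FC of 0.10 (SE 0.13). The reciprocal pair gave 0.31 (SE 0.22) for FADS1 counts opposite FADS2 and -0.18 (SE 0.25) for FADS2 counts opposite FADS1.

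Directions are given next for members that lie opposite a protein-coding gene and for the rest, a division that was not tested. ACAT2, FADS1, FADS2, MVK and SREBF1 lie opposite one, and 1 of these 5 had an own-name log2FC above 0, with a median of -0.33. FADS1 and FADS2 lie opposite each other, so these are not 5 separate loci. Among the other 24 tested members it was 21 of 24, with a median of 0.22. Of all tested protein-coding genes 62.0% were above 0, with a median of 0.13. The division was not among the planned results, and the share over all genes that lie opposite one is not given here. The medians by library come from the same counts, so they are no second observation of it. The median over the 24 of log2(CPM + 1), centred on each gene's mean, was -0.53, -0.25 and 0.34 in controls 1 to 3 and 0.36, 0.04 and 0.22 in TNFAIP2-labelled libraries 1 to 3. Over the 5 genes it was 0.45, 0.31 and -0.18 in controls and -0.17, 0.00 and -0.19 in TNFAIP2-labelled libraries, and over 9057 protein-coding genes it was -0.11, -0.14 and 0.10 in controls and 0.17, 0.00 and 0.10 in TNFAIP2-labelled libraries. Controls 1 and 2 lay low for the 24 and high for the 5, and both had the lowest own-strand ratios. Control 1 was the lowest library for 14 of the 29 tested members and for 30.6% of protein-coding genes.

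**Figure D4:**
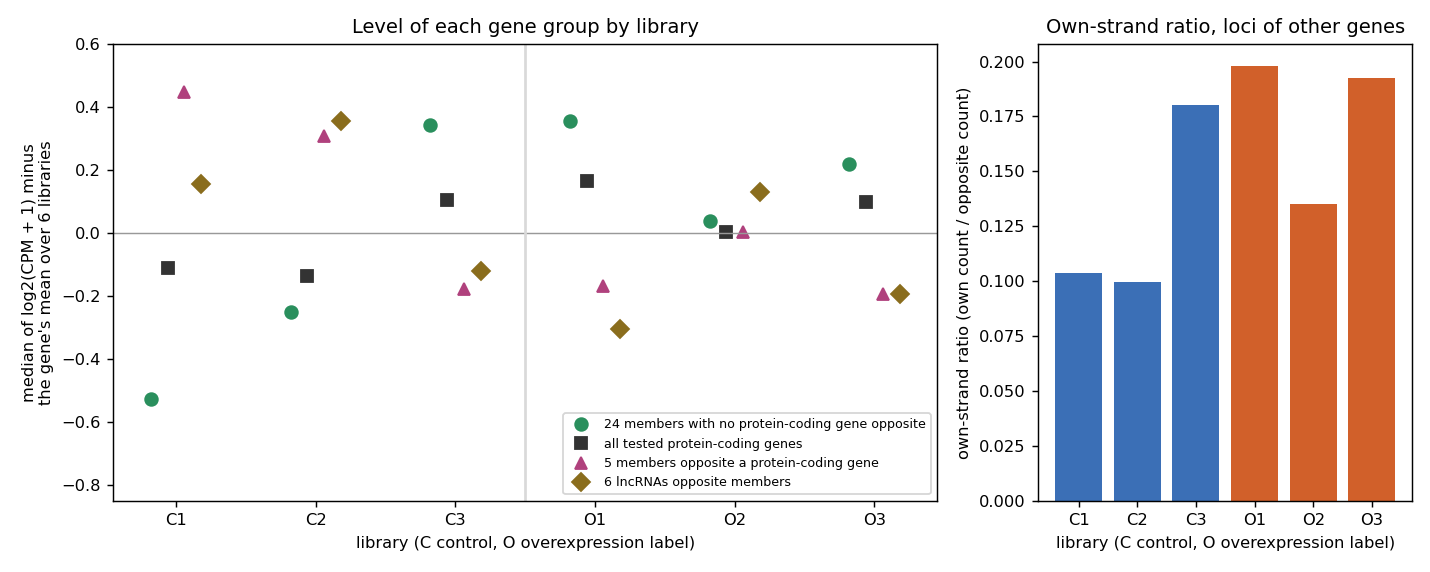
Median of centred log2(CPM + 1) per library for groups of synthesis genes, all protein-coding genes and the lncRNAs opposite, beside the own-strand ratio of each library. Controls 1 and 2 have ratios of 0.104 and 0.0994 and the lowest medians of the 24 genes, -0.53 and -0.25.

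The directions changed when single libraries were left out and when this ratio entered the fit. For the covariate in the edgeR fit, the log2 own-strand ratio was taken over 366 features, with synthesis loci not left out. It was itself built from own-name counts of these libraries. With this covariate, 11 of 29 members had a log2FC above 0 with a median of -0.10, beside 48.6% of protein-coding genes. Without control 1, 15 of 31 members tested were above 0, with a median of -0.03. Without control 3, whose own-strand ratio was 0.180, 23 of 30 were above 0 with a median of 0.48, and 4 members passed the threshold, beside 922 of 12443 genes (7.41%). These were SCD with a log2FC of 1.496 (SE 0.36, edgeR adjusted p = 0.00641), FDPS with 1.05 (SE 0.28, adjusted p = 0.0109), ACLY with 0.95 (SE 0.27, adjusted p = 0.0188) and FADS2 with -0.77 (SE 0.25, adjusted p = 0.0354). Without control 1 the same genes moved toward 0, to 0.43 for SCD, 0.45 for FDPS, 0.21 for ACLY and -0.18 for FADS2, and SREBF1 moved from -0.42 to -0.22. With the covariate the log2FC was 0.35 for SCD, 0.36 for FDPS, -0.19 for ACLY, 0.31 for FADS2 and -0.10 for SREBF1.

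Promoter windows of RefSeq (GRCh38.p14, 250 bases before to 50 after a gene's start) matched 29 of the 33 genes, with 40 windows in all. ACAT2, FASN, FDFT1 and SQLE had none there. The windows of SREBF2 and MVK are shown because each lies where transcripts of both strands are annotated: SREBF2-AS1 (41831215 to 41834665, minus strand) spans the first, and the second shares 211 bases with the window of MMAB. MMAB, a vitamin B12 enzyme gene, also overlaps 306 exonic bases of MVK. Capitals mark matches on either strand, joined where they overlap, to a sterol regulatory element form spelled TCACNCCAC, to the CCAAT box, to the GC box spelled GGGCGG and to the E-box spelled CACGTG.
SREBF2, chr22:41832855-41833154, plus strand: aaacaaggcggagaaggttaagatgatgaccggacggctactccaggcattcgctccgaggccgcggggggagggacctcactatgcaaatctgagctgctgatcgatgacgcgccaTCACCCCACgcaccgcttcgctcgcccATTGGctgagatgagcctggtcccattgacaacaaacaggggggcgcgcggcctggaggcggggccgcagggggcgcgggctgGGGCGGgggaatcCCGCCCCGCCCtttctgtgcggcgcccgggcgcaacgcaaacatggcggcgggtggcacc
MVK, chr12:109573544-109573843, plus strand: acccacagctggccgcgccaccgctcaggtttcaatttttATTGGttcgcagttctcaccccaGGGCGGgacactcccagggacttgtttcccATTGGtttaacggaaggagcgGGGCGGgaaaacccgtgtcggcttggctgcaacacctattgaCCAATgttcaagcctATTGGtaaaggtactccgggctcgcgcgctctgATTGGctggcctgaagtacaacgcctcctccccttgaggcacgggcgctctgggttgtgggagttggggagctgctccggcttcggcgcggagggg
In SREBF2 the form TCACCCCAC began 133 bases before the start and a CCAAT box on the minus strand 106 bases before it. The MVK window held 5 CCAAT and 2 GC boxes. TCACNCCAC was found in 1 of 40 member windows (2.5%) and in 1.13% of 35116 windows of all genes. CCAAT was in 65% and 34.6%, GGGCGG in 87.5% and 45.0% and CACGTG in 15% and 7.26% of the same windows. These matches describe letters, and binding was not measured.

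Genes of neighbouring lipid pathways had 0 members past the threshold in any of 5 lists. Of 13 tested genes of other sterol and isoprenoid steps, 10 had a log2FC above 0 with a median of 0.29, and of 15 of other fatty acid and elongation steps, 8 did with a median of 0.25. HACD3 and TECR, which complete each elongation cycle and of which TECR overlaps 211 exonic bases of DNAJB1, had 44.5 ± 19.8 and 37.5 ± 14.7 CPM in controls and 62.1 ± 12.1 and 47.4 ± 6.31 CPM in TNFAIP2-labelled libraries (SD, n = 3). FAXDC2, a hydroxylase-family gene that overlaps 163 exonic bases of CNOT8, had 81.5 ± 15.9 and 65.9 ± 9.76 CPM. For sterol processing, uptake and efflux 10 of 18 were above 0 with a median of 0.06, for glycerolipids and droplets 8 of 14 with a median of 0.05, and for fatty acid oxidation 12 of 16 with a median of 0.32.

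NR1H3, which encodes the oxysterol receptor LXR alpha, had 56.8, 42.9 and 43.6 CPM in controls and 25.1, 34.4 and 32.2 CPM in TNFAIP2-labelled libraries. Each control was higher than each TNFAIP2-labelled library, as for 583 of 11851 genes (4.92%) and for 2 of the 18 tested genes of its list. The log2FC was -0.64 (SE 0.27) with an edgeR p of 0.0275, adjusted to 0.830. PCYT2, of phosphatidylethanolamine synthesis, was separated in the same direction, as the only 1 of the 14 tested genes of its list. It had 48.0 ± 7.03 CPM in controls and 35.9 ± 3.77 CPM in TNFAIP2-labelled libraries (SD, n = 3, edgeR adjusted p = 0.830). Both lie opposite a protein-coding gene, NR1H3 by 189 exonic bases of ACP2 and PCYT2 by 1941 of NPB. Directions were mixed among the other named genes that do so. Log2FC values were 0.34 for TECR and 0.49 for ACADVL, but -0.31 for FAXDC2, -0.29 for NPC2 and -0.29 for ETFDH. NPC2, a lysosomal cholesterol carrier gene opposite 103 exonic bases of ISCA2, had 125 ± 39.5 and 103 ± 19.1 CPM, and the droplet coat gene PLIN3 had 55.3 ± 14.4 and 58.2 ± 13.9 CPM. For fatty acid oxidation, ETFDH, opposite 490 exonic bases of PPID, had 222 ± 48.8 and 182 ± 33.2 CPM, and the acyl-CoA dehydrogenase gene ACADVL, opposite 85 of DLG4, had 65.8 ± 24.9 and 92.6 ± 14.8 CPM.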

How the data were processed

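RNA-seq libraries of CAL27 cells were made with a stranded mRNA kit, per the labels' protocols. Per the submitters' processing notes, HISAT2 2.2.0, HTSeq 0.13.5 and Trim Galore 0.6.4 were used with build GRCh38. Which strand was counted, and from which annotation release, is not given in the sources used here. Values deposited by the authors are raw counts, whole numbers for each gene in each of the 6 libraries. Groups were taken from the titles.

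The counts were tested with edgeR 4.0.16 (R 4.3.3): filterByExpr by group, TMM scaling, a robust quasi-likelihood fit, glmQLFTest and Benjamini-Hochberg adjustment over all genes tested, with a threshold of 0.05. CPM values use the TMM-scaled library sizes, and standard errors come from the F statistic. The fit was also run on simulated counts with large known changes and a fixed dispersion. That setting does not measure its power or error rate for differences as small as those here. Exons of GENCODE 29 (Python 3.11.15, pandas 2.3.3, pyranges 0.1.4) gave features opposite a gene by at least 50 exonic bases. Features were summed by gene where the whole count of the feature, per overlapping base, reached 5 times the own count of the gene per exonic base. The own-strand ratio used features with at least 90% of their bases in such an overlap and at least 60 counts, with 0.5 added to each count, and was compared with SciPy 1.17.1.

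Values in every library were given for members past the threshold, tested members with separate groups, the 4 most abundant tested members of each role and members in the opposite-strand sums; for each other list the 2 most abundant tested genes were taken. SCD, ELOVL6, PMVK, HSD17B7, MMAB, RAI1 and the other lncRNA values were named after they were seen. For 1 gene taken by this rule no value is given. The members, lists, tests and alternatives were chosen with earlier results of these data known. Alternatives were DESeq2 1.42.0, limma-voom (limma 3.58.1), other scalings and low-count filters, other overlap and density limits, a replicate block, the own-strand ratio as a covariate and each library left out in turn.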

Additional observations from a re-analysis of the deposited data

How the results depend on the processing

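The overlap and density limits bear only on the opposite-strand sums, and with 200 bases ACLY and LSS had no sum. The low members CYP51A1, SC5D, INSIG2 and STARD4 held 65 to 72 counts each over the 6 libraries, with standard errors from 0.73 to 0.92. Why their counts were low was not tested. Genes past the threshold under their own names numbered 0 in the edgeR fit, 3 with DESeq2, 1 with limma-voom, 3 with no filter on low counts, 1 with at least 1 CPM in 3 libraries, and 0 to 922 when each library was left out in turn. Member calls then ran from 0 to 4 and the member median from -0.033 to 0.48. With the own-strand ratio as covariate that median was -0.10. Opposite-strand calls numbered 3, and 1 with library totals, 0 with the covariate, 2 with an overlap of 200 bases and 0 to 69 when each library was left out. Library totals in place of TMM moved the median of all genes from 0.02 to 0.18 and that of the members to 0.33. Of 29 named values (19 own-name, 10 opposite), 12 kept their sign in every alternative. With the covariate the own-name log2FC became -0.46 for HMGCS1, -0.40 for IDI1, -0.12 for FDFT1, -0.86 for SQLE, -0.054 for LSS, -0.37 for INSIG1, -0.19 for ACLY, -0.064 for ELOVL5 and 0.31 for FADS2, and the opposite value -0.10 for ACAT2, -0.060 for HMGCS1, 0.039 for IDI1, 0.10 for LSS and 0.33 for FADS1. Opposite LSS it was 0.025 with library totals, and opposite HMGCS1 it was -0.0035 with no density limit. The causes were not tested. Leaving out each library gave own-name ranges of -0.18 to 0.53 for HMGCS1, -0.22 to 0.67 for IDI1, -0.026 to 0.34 for FDFT1, -0.43 to 1.08 for SQLE, -0.067 to 0.38 for DHCR7, -0.33 to 0.69 for INSIG1, -0.0045 to 0.36 for FASN, -0.16 to 0.92 for ELOVL5 and -0.038 to 0.31 for FADS1. The opposite ranges were -0.012 to 0.23 for ACAT2, -0.16 to 0.12 for HMGCS1, -0.15 to 0.11 for LSS and -0.45 to 0.056 for FADS1. Same-numbered libraries of the groups share only a number: their deviations correlated at -0.25, 0.15 and -0.047 over genes. With a replicate block on that number, 0 genes passed under their own names, 3 by opposite sums and 0 members, with a member median of 0.20.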

Other observations

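At LSS a second lncRNA on the other strand, AP001468.1 (chromosome 21, 46185079 to 46188941, plus strand), overlaps 448 exonic bases. It had 30, 28 and 27 counts in controls 1 to 3 and 14, 21 and 7 counts in TNFAIP2-labelled libraries 1 to 3. Each control was higher in CPM than each TNFAIP2-labelled library, as for 583 of 11851 genes (4.92%). The log2FC was -1.25 (SE 0.56) with an edgeR p of 0.0341, adjusted to 0.830. An unadjusted p under 0.05 was found for 580 of 11851 genes (4.89%). This feature was singled out after its values were seen. AP001469.1, at another exon of the same gene, had 308, 288 and 225 counts in controls and 231, 280 and 312 counts in TNFAIP2-labelled libraries, and these overlapped.

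The ratio of SREBF1 to RAI1 counts was 3.17, 4.11 and 3.80 in controls and 2.16, 2.17 and 1.89 in TNFAIP2-labelled libraries. It did not overlap between the groups, with means of 3.69 ± 0.476 and 2.07 ± 0.157 (SD, n = 3). The ratio of LSS to AP001468.1 counts did not overlap either, with 1.72, 2.09 and 4.16 in controls and 8.45, 4.53 and 12.7 in TNFAIP2-labelled libraries. Both ratios were singled out after their values were seen and were not tested. The share of such ratios over all loci is not given here. MMAB, opposite MVK, had 23, 23 and 30 counts in controls and 65, 31 and 34 counts in TNFAIP2-labelled libraries. In CPM scaled over all genes its groups did not overlap either, as for 657 of 11851 genes (5.54%) in that direction. The gap was small, with 8.85 CPM in control 3 beside 9.03 and 9.05 CPM in TNFAIP2-labelled libraries 2 and 3. Its log2FC was 0.51 (SE 0.44, edgeR adjusted p = 0.841).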
